A study of Homo sapiens with 4 samples.

Results

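The RNA of a vemurafenib-resistant strain of A375 melanoma cells (A375R) was compared with that of A375 cells kept in the drug's solvent (A375+DMSO), gene by gene. These are 2 of 4 RNA-seq libraries from a study of vemurafenib resistance, beside untreated parental cells (A375P) and cells under acute vemurafenib (A375+VEM). Among these libraries the study set A375R beside A375P and A375+VEM beside A375+DMSO, so the pair described here crosses its designs. The study also compared A375R with LINC01198-knockout A375R by RNA-seq, and the knockout is not among the 4 libraries. Genes entered when they reached 1 TPM in at least 1 of the 2 libraries, which 1702 of the 2864 genes with values in the table did. TPM, the usual RNA-seq unit, is a read count corrected for gene length and for the size of the library.

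A375 is an established human melanoma cell line, and all 4 libraries carry the same genotype label, wild type, and the same batch label. The genotype label does not give the state of BRAF, and the paper presents its work as a study of BRAF-mutated melanoma. A375+DMSO cells received DMSO at 1‰ for 48 h and A375+VEM cells 2 μM vemurafenib for 48 h. A375R cells were grown under stepwise rising vemurafenib, which the labels describe as constant, and form a single resistant strain. A375P cells were untreated. Resistance, continued drug, the long culture that selected the strain and the 48 h solvent step differ together between A375R and A375+DMSO. Their effects, and those of any other difference in culture, cannot be told apart. Since each condition has 1 library, the differences below cannot be set against a spread between replicates, and none carries a p-value.

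Vemurafenib blocks the mutant BRAF kinase that keeps the MEK and ERK pathway switched on in many melanomas, and sensitive cells stop dividing when it is given. Resistant melanoma cells are known for growth factor receptors and ligands, anti-apoptotic proteins, NF-kB activity and aldehyde dehydrogenases at changed levels. The hypoxia response, run by HIF factors that bind short DNA motifs in promoters, and the interferon response are other programmes that melanoma cells switch with their growth state.

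The table holds the first genes of the alphabet only, up to names that start with CAC. Its genes held 1963230 reads in A375R and 1891215 in A375+DMSO, with 1932550 to 2054277 in the other libraries, which is 8.48% to 8.94% of each library's TPM. LINC01198, IL1B and the genes by which pigment cells are usually recognised were not analysed here. Among 26 marker genes of other cell types, such as liver, muscle and B cells, 12 could be compared. None was higher in A375R past 1.5-fold and 1, AFP, was lower (5 and 24 reads in A375R and A375+DMSO). The lower share was 8.33%, beside 9.99% of all genes. The summed level of the 26 markers was 138 TPM in A375R and 134 TPM in A375+DMSO, beside 226 in A375P and 145 in A375+VEM. ACTC1 and ADIPOQ had no read in either of the compared libraries, and the liver gene ALB had 931 reads in A375R and 879 in A375+DMSO. In bulk RNA, fewer cells of a kind and less RNA per cell cannot be told apart.

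A375R and A375+DMSO were the most alike of the 6 pairs of libraries. A ratio of (TPM + 0.1) past 1.5-fold was met by 349 of 1702 genes, which is 20.5%. In the other pairs it was met by 44.3% to 62.1% of the genes compared. The correlation of log2 levels over 1700 genes was 0.958 for A375R with A375+DMSO, 0.922 for A375R with A375P and 0.805 for A375R with A375+VEM. A375+DMSO in turn had 0.904 with A375P and 0.867 with A375+VEM. Genes are not replicates, and the pairs share libraries.

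**Figure D1:**
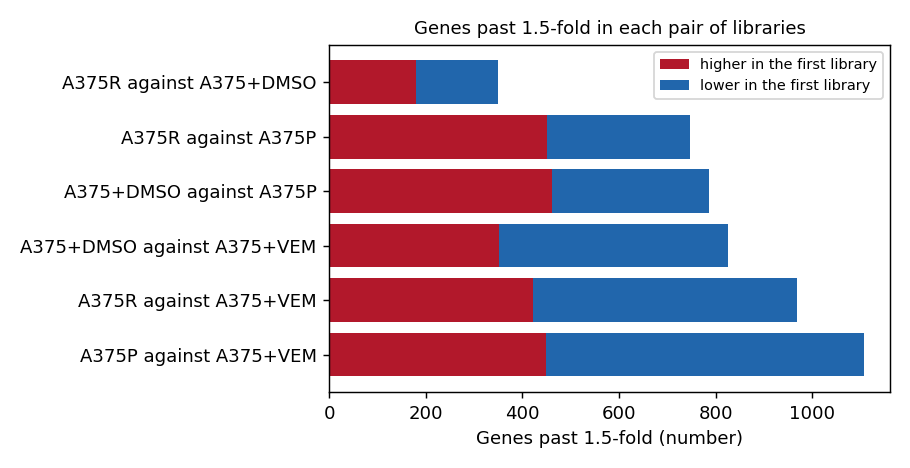
Number of genes past 1.5-fold (horizontal axis) in each of the 6 pairs of libraries, split into those higher (red) and lower (blue) in the first library named. A375R against A375+DMSO has the shortest bar with 349 genes, and A375P against A375+VEM the longest with 1107.

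Of the 1702 genes, 179 were higher in A375R (10.5%) and 170 were lower (9.99%), with a median log2 ratio of 0.02. Past 2-fold there were 72 higher and 75 lower genes, past 5-fold 12 and 13, and past 8-fold 4 and 5. Among genes past 1.5-fold the direction moved with the level. Of 178 genes at or above 100 TPM in the higher library, 19 were higher in A375R and 4 lower, while of 362 genes under 5 TPM 48 were higher and 94 lower. Median log2 ratios did not rise steadily with the level. They were −0.18 under 5 TPM, 0.05 at 5 to 20 TPM, 0.06 at 20 to 100 TPM and −0.05 at or above 100 TPM. Among 1564 protein-coding genes 159 were higher and 143 lower. Among 60 lncRNAs, antisense transcripts included, 6 were higher and 17 lower, with a median log2 ratio of −0.14. Below, genes are called higher or lower only past 1.5-fold, folds of single genes are ratios of TPM, and intervals are exact 95% intervals on the reads that cover counting error only.

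**Figure D2:**
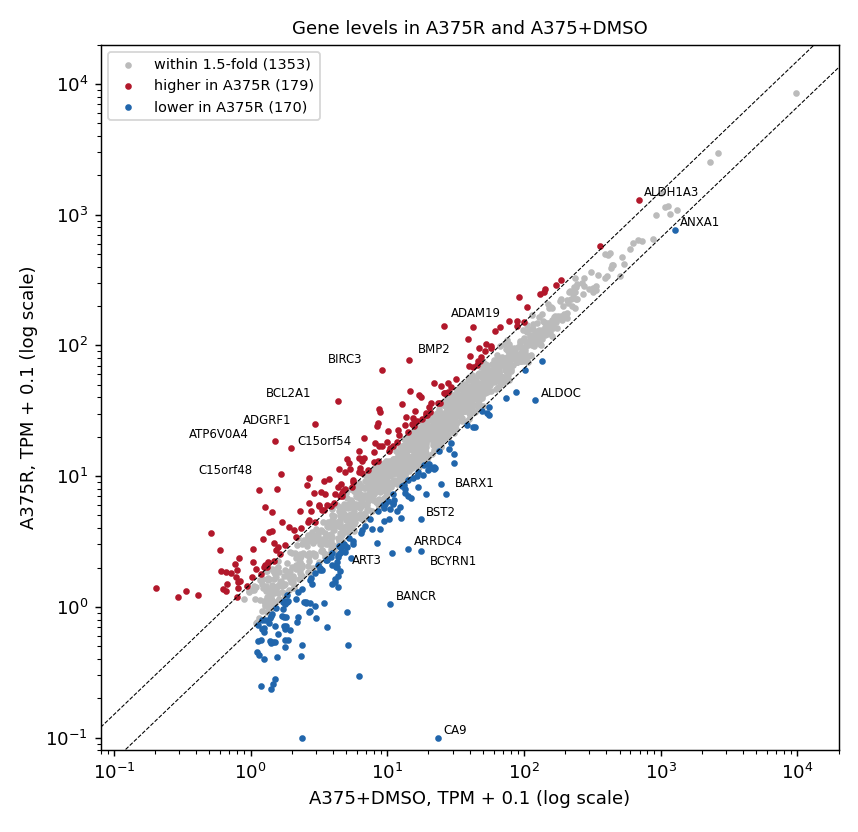
Level of each of the 1702 genes in A375+DMSO (horizontal axis) and A375R (vertical axis), as TPM + 0.1 on log scales, with dashed lines at 1.5-fold. The 179 red genes lie above the lines and the 170 blue genes below, and CA9, without a read in A375R, lies on the lower edge.

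BIRC3 and BCL2A1, whose products hold off cell death, were among the largest differences. BIRC3, which encodes the ubiquitin ligase cIAP2 of the inhibitor of apoptosis family, had 3445 reads in A375R, 502 in A375+DMSO, 1386 in A375P and 384 in A375+VEM. Its level of 64.4 TPM in A375R was 7.09-fold that of 9.08 TPM in A375+DMSO (95% interval 6.45 to 7.80). A375R was the highest of the 4 libraries and A375P the next. BIRC2, the gene of the sister ligase cIAP1, was at 75.7 TPM in A375R and 45.6 in A375+DMSO, a 1.66-fold difference (1.56 to 1.77). It was higher still in A375P, at 92.2 TPM, and lowest in A375+VEM, at 32.7. Both genes lie on the plus strand of chromosome 11 in hg19, BIRC3 at chr11:102188181-102210134 and BIRC2 at chr11:102217913-102249401, 7779 bp apart. Of 8 genes of the family compared, these 2 were higher, or 25%, where 10.5% of all genes were. None was lower, and only 1 of the 2 passed 2-fold. BIRC5, the mitotic protein survivin, was at 47.9 and 64.7 TPM, a log2 ratio of −0.43 that stayed within the threshold.

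BCL2A1, an anti-apoptotic relative of BCL2, was 8.84-fold higher in A375R (95% interval 6.12 to 13.2). It had 274 reads in A375R, 32 in A375+DMSO, 62 in A375P and 61 in A375+VEM, so that A375R stood above the other libraries. It was 1 of 9 genes compared of the BCL2 group of survival and pore-forming proteins, and the other members stayed within the threshold. That is 11.1% of the group, close to the 10.5% of all genes that were higher. BCL2L1, the gene of BCL-XL, was at 144 TPM in A375R and 105 in A375+DMSO. BCL2 was at 4.35 and 3.57 TPM, BAX at 152 and 139, and BAK1 at 33.0 and 28.7. BH3-only genes, whose products start apoptosis, gave 1 higher and 1 lower member of 8. That is 12.5% each, near the 10.5% and 9.99% of all genes. BIK was at 9.35 TPM in A375R and 3.67 in A375+DMSO, 2.55-fold apart (1.62 to 4.10). BCL2L11, the gene of BIM, was at 3.08 and 4.31 TPM and BMF at 3.49 and 3.77, while A375+VEM had 13.6 TPM of BCL2L11 and 128 TPM of BMF. The lower member was BNIP3, which is also a hypoxia gene and is described with them.

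Of 9 NF-kB target genes compared, ADAM19, BCL2A1, BIRC2, BIRC3 and BMP2 were higher and AGER was lower, with a median log2 ratio of 0.73. The shares were 55.6% and 11.1%, beside 10.5% and 9.99% of all genes. AGER had only 22 and 39 reads, and it was no longer called where its interval had to exclude 1 or with a pseudocount of 1. The list was written when BIRC3, BMP2 and others of its genes were already known to differ in these data, so its count is a description of those genes. BCL2L1 and B2M, also on it, were within the threshold at log2 ratios of 0.45 and 0.08.

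Of 5 genes on a list of EGFR ligands and neurotrophic factors, which also held AGRN, 4 were higher in A375R and none lower. The median log2 ratio was 0.78, and 10.5% of all genes were higher. The list was written with earlier results of these data known, so its count is a description of those genes. The count is 3 where the interval must exclude 1 and 2 at 2-fold, and 1 of the 2 genes that reach 5 TPM was higher. AREG, the EGFR ligand amphiregulin, had 238 reads in A375R, 85 in A375+DMSO, 81 in A375P and 1 in A375+VEM. That is 24.1 against 8.33 TPM, or 2.89-fold (95% interval 2.25 to 3.75), and A375+DMSO was close to A375P. BTC, which encodes betacellulin, another EGFR ligand, had 44 and 15 reads in the compared libraries, 45 in A375P and 102 in A375+VEM. A375R thus matched A375P for this gene, and A375+DMSO was the lowest. BDNF, a neurotrophin, was at 4.51 TPM in A375R and 2.59 in A375+DMSO, both far under the 21.8 TPM of A375P. ARTN, the GDNF-family ligand artemin, had only 29 and 19 reads, and its 95% interval of 0.854 to 2.98 includes 1. AGRN, agrin, was at 295 and 243 TPM.

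BMP2, a ligand of the TGF-β superfamily, was 5.39-fold higher in A375R (95% interval 4.82 to 6.05). Its levels were 76.9 TPM in A375R, 14.3 in A375+DMSO, 31.6 in A375P and 8.71 in A375+VEM. A375R was the highest library, followed by A375P. Of 7 BMP ligand genes compared, BMP6 was higher too, at 8.88 and 5.52 TPM, and BMP7 was lower, at 0.833 and 2.64 TPM. With BMP2 included, 28.6% were higher and 14.3% lower, beside 10.5% and 9.99% of all genes. BMP4 had 59 and 57 reads. Of 8 receptors and modulators of the pathway none was higher and 1 was lower, or 12.5%, near the 9.99% of all genes. That gene was BAMBI, a decoy receptor that dampens BMP and TGF-β signals, with 314 reads in A375R, 607 in A375+DMSO, 201 in A375P and 1358 in A375+VEM. It was 1.87-fold lower in A375R than in A375+DMSO (1.63 to 2.15). The receptor genes BMPR1A (723 and 723 reads) and BMPR2 (1148 and 934 reads) stayed within the threshold.

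AXL, a receptor tyrosine kinase of dedifferentiated melanoma cells, was at 575 TPM in A375R and 358 in A375+DMSO, a 1.60-fold difference (95% interval 1.57 to 1.64). A375P had more, 659 TPM, and A375+VEM 92.4, so the resistant strain did not have the highest AXL of the study. The other receptor tyrosine kinase gene compared, AATK, was lower in A375R at a log2 ratio of −1.86 (2.67-fold to 6.18-fold lower by its interval), with 30 reads in A375R, 124 in A375+DMSO, 48 in A375P and 674 in A375+VEM. None of 7 RAF and AKT kinase genes passed 1.5-fold. BRAF, the target of the drug, had 688 reads in A375R, 479 in A375+DMSO, 713 in A375P and 460 in A375+VEM, and its 1.48-fold difference lay just under the threshold (1.32 to 1.67). ARAF, a related kinase gene, was at 52.3 and 54.9 TPM. A list of genes linked to the response to BRAF inhibitors had 5 of 24 members higher, or 20.8%, and none lower. Among all genes 10.5% were higher and 9.99% lower. On the list 3 were higher at 2-fold, and 1 was lower with a pseudocount of 0.01. The 5 higher genes were ALDH1A3, AREG, AXL, BCL2A1 and BIRC3. The list, like the others, was written with earlier results of these data known. The drug efflux pump genes of the list, ABCB1 (7.78 and 5.67 TPM), ABCG2 (1.55 and 1.26 TPM) and ABCC1 (41.7 and 44.4 TPM), were within the threshold.

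**Figure D3:**
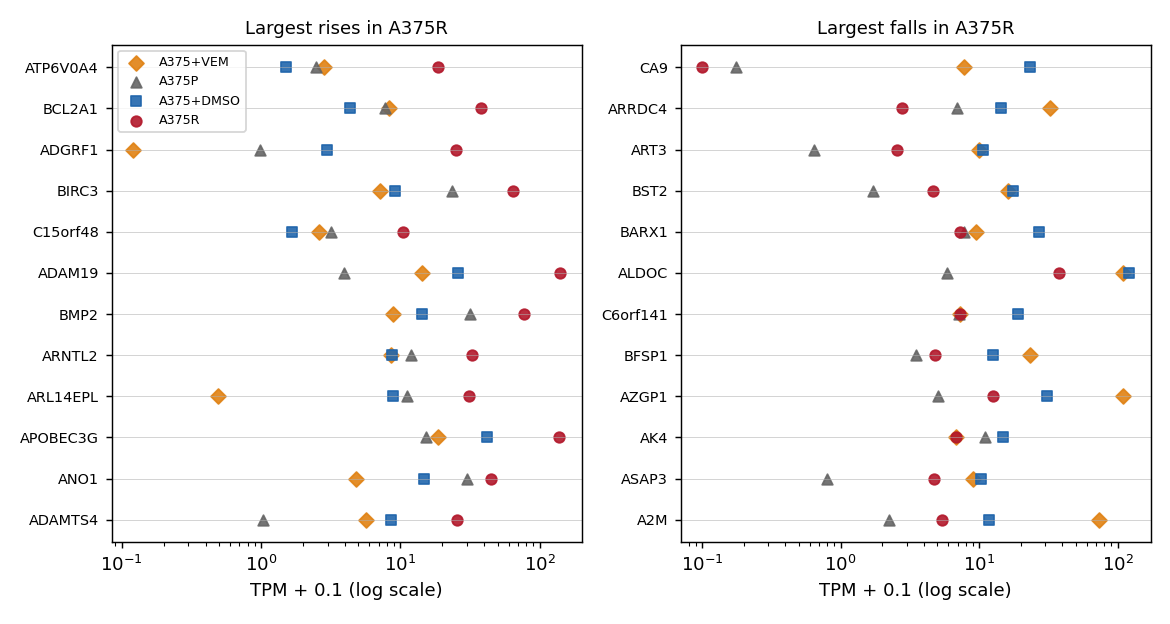
TPM + 0.1 (log scale) in the 4 libraries for the 12 protein-coding genes with the largest and the 12 with the smallest ratio of A375R to A375+DMSO among genes that reached 10 TPM, 1 marker per library. In the left panel A375R (red circle) stands to the right of A375+DMSO (blue square), as for ATP6V0A4 and ADAM19, and in the right panel to its left, as for CA9 and ALDOC.

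Metalloproteinases of the cell surface and matrix moved in both directions. Of 27 ADAM, ADAMTS and ADAMTS-like genes compared, 5 were higher in A375R and 5 lower, with a median log2 ratio of 0.06. That is 18.5% each, beside 10.5% and 9.99% of all genes. ADAM19, a membrane-bound protease that sheds growth factors, had 7079 reads in A375R, 1348 in A375+DMSO, 214 in A375P and 737 in A375+VEM. The 140 TPM of A375R were 5.42-fold the 25.8 TPM of A375+DMSO (95% interval 5.12 to 5.75), and A375P had the lowest level, 3.82 TPM. ADAMTS4, an aggrecan-cleaving enzyme, was at 25.5, 8.48, 0.939 and 5.59 TPM in A375R, A375+DMSO, A375P and A375+VEM. A375R was thus 3.01-fold above A375+DMSO (2.63 to 3.44), with A375P again lowest. ADAMTS12, a secreted relative, was at 36.1, 20.8, 13.4 and 5.86 TPM in the same order. ADAMTS6 (5.31 and 2.19 TPM) and ADAMTSL1 (10.7 and 4.77 TPM) completed the higher genes. The lower ones were ADAM23, a non-catalytic cell adhesion protein at 5.75 and 12.3 TPM, ADAM11, ADAMTSL3, ADAMTS10 and ADAMTSL4. The main sheddases ADAM10 (65.3 and 62.6 TPM) and ADAM17 (53.0 and 51.0 TPM) were close to equal.

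Adhesion G protein-coupled receptors, which join a long extracellular stalk to a signalling receptor, had 3 higher and 3 lower members of 15. That is 20% each, beside 10.5% and 9.99% of all genes, and at 2-fold 3 were higher and none lower. ADGRF1 differed most, with 1170 reads in A375R, 140 in A375+DMSO, 46 in A375P and 1 in A375+VEM. The level in A375R was 8.63-fold that of A375+DMSO (95% interval 7.24 to 10.4), and each library differed widely from the next. ADGRL4, a receptor best known from blood vessels, was at 9.57 TPM in A375R and 2.56 in A375+DMSO, beside 11.0 in A375P and 2.40 in A375+VEM. A375R and A375P were alike for this gene, and so were the pair that had been treated for 48 h. ADGRE2 was the third at 7.41 and 3.17 TPM, and ADGRA2, ADGRL3 and ADGRL1 were the lower ones, at log2 ratios of −0.81, −0.72 and −0.62. Among matrix and cell adhesion genes 3 of 16 were higher and 2 lower, or 18.8% and 12.5%, and none passed 2-fold. AMIGO2, a neuronal-type adhesion protein, was at 102 and 52.7 TPM, and BGN, the proteoglycan biglycan, at 39.7 and 74.3 TPM.

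The largest rise of all named genes was that of ATP6V0A4, at chr7:138391039-138482941 on the minus strand in hg19. It encodes the a4 subunit of the vacuolar proton pump, a form known from acid-secreting cells of the kidney. Reads numbered 479 in A375R, 38 in A375+DMSO, 68 in A375P and 73 in A375+VEM, a 13.0-fold difference (95% interval 9.35 to 18.6) between the compared libraries. The pump's other subunits did not share it. Of 41 autophagy and vacuolar pump genes 2 were higher, or 4.88% beside 10.5% of all genes. The 1 lower gene was ATP6V1G2, with 10 and 33 reads, and ATP6V1A and ATP6V0D1 had log2 ratios of 0.10 and −0.12. The other higher gene was ATG12, at a log2 ratio of 1.03, which overlaps AP3S1, itself at 0.88, so their reads may be shared.

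C15orf48, which encodes a small mitochondrial protein induced in inflammation, had 76 reads in A375R and 12 in A375+DMSO, 6.54-fold by TPM (95% interval 3.54 to 13.2). ARNTL2, a circadian transcription factor, was at 32.7, 8.58, 11.8 and 8.41 TPM in A375R, A375+DMSO, A375P and A375+VEM. Its 3.80-fold difference (3.45 to 4.20) set A375R apart from libraries between 8.41 and 11.8 TPM. ARNT2, a partner of the same protein class, was at 51.8 and 27.6 TPM, with 82.0 in A375P. ARL14EPL was at 31.0 and 8.77 TPM, 3.53-fold apart (2.52 to 5.04), and had 2 reads in A375+VEM. ANO1, a calcium-activated chloride channel, was at 44.8, 14.7, 29.7 and 4.72 TPM in the same order of libraries, so that A375R was 3.05-fold above A375+DMSO (2.78 to 3.36) and A375P lay between them. Of 8 anoctamins compared, ANO4 also passed the threshold, downwards. Thus 12.5% were higher and 12.5% lower, near the 10.5% and 9.99% of all genes.

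Several highly expressed genes were also higher. AKAP12, a scaffold that anchors protein kinase A, had 15843 reads in A375R, 6439 in A375+DMSO, 5313 in A375P and 6035 in A375+VEM. Its 2.54-fold difference (95% interval 2.47 to 2.62) separated A375R from libraries that lay between 70.5 and 91.6 TPM. It was the only 1 of 17 adenylyl cyclase and anchoring protein genes past the threshold, or 5.88%, where 10.5% of all genes were higher. C3, the central complement component, was at 112 TPM in A375R, 39.0 in A375+DMSO, 10.4 in A375P and 236 in A375+VEM. ANXA1, a phospholipid-binding annexin, went the other way, at 762, 1268, 531 and 416 TPM, where A375+DMSO was the highest library and A375R 1.66-fold lower (1.62 to 1.71). ANXA2 was at 1475 and 1011 TPM, a log2 ratio of 0.55 that stayed within the threshold. ARID3B, a DNA-binding chromatin protein, was at 19.6 TPM in A375R and 20.4 in A375P, well above the 6.61 TPM of A375+DMSO and the 7.69 TPM of A375+VEM.

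The APOBEC3 cytidine deaminases, which edit cytosines in viral and cellular DNA, were higher in A375R as neighbours. The 7 genes of the family lie within 146.5 kb on chromosome 22 (chr22:39353527-39500072, hg19). APOBEC3B, APOBEC3C, APOBEC3D, APOBEC3F and APOBEC3G were all higher in A375R. They made up 5 of the 9 APOBEC genes compared, none of which was lower, and the median log2 ratio was 0.78. Among all genes 10.5% were higher, and 2 of the 5 passed 2-fold. APOBEC3G had 1966 reads in A375R, 615 in A375+DMSO, 240 in A375P and 271 in A375+VEM. At 138 TPM it stood 3.30-fold above the 41.9 TPM of A375+DMSO (95% interval 3.01 to 3.62). APOBEC3C, the most abundant member, was at 154 TPM in A375R and 77.8 in A375+DMSO, 1.98-fold apart (1.81 to 2.18), with 56.4 in A375P and 77.5 in A375+VEM.

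APOBEC3D was at 28.1 and 13.6 TPM in A375R and A375+DMSO and APOBEC3F at 18.2 and 9.84 TPM, and for both A375P was lowest, at 6.67 and 5.05 TPM. APOBEC3B, a nuclear member linked to mutations in tumours, had 654 reads in A375R, 392 in A375+DMSO, 201 in A375P and 31 in A375+VEM. Unlike its neighbours it was lowest in A375+VEM. At the ends of the cluster, APOBEC3H had 27 and 21 reads (ratio interval 0.723 to 2.47) and APOBEC3A 1 and 0. The genes are near-identical copies in places, and how shared reads were counted is not given in the sources used here, so the split between them is uncertain.

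**Figure D4:**
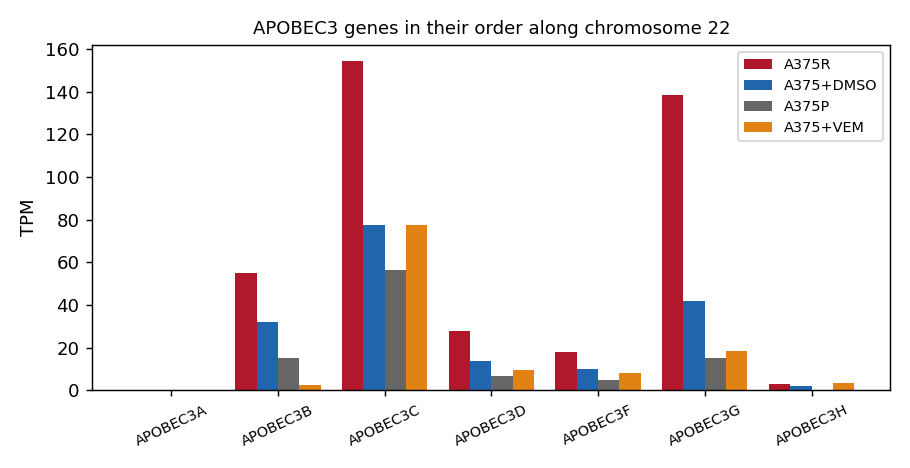
TPM of the 7 APOBEC3 genes, in their order along chromosome 22, with 1 bar per library and 1 library per condition. The A375R bar is the highest for APOBEC3B, C, D, F and G, with 154 TPM for APOBEC3C and 138 TPM for APOBEC3G.

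Interferon-inducible genes, a list that also holds APOBEC3G, did not move as a body. Of 13 compared, 4 were higher and 1 lower, with a median log2 ratio of 0.17, and APOBEC3G was 1 of the 4. That is 30.8% and 7.69%, beside 10.5% and 9.99% of all genes. The higher count is 3 under scaling to a median ratio of 1, and 2 with a pseudocount of 1 or at 2-fold. APOL3, an apolipoprotein L, had 102 and 37 reads, and APOL6 was at 15.4 and 10.2 TPM. BATF2, a transcription factor, was at 11.0 and 7.15 TPM, with 13.9 in A375P. BST2, which encodes tetherin, a protein that holds virus particles at the cell surface, was 3.82-fold lower in A375R (95% interval 2.63 to 5.67). It had 36 reads in A375R, 142 in A375+DMSO, 14 in A375P and 131 in A375+VEM, so the pair treated for 48 h was high and the others low. The lncRNA BISPR starts 38 bp from BST2 on the other strand and had 40, 73, 28 and 91 reads in the same order. B2M (1140 and 1075 TPM) and ADAR (132 and 136 TPM) were close to equal.

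Among hypoxia-inducible genes 4 of 12 were lower in A375R and 1 was higher, with a median log2 ratio of −0.27. Among all genes 9.99% were lower and 10.5% higher, and 3 of the 4 lower genes passed 2-fold. BNIP3, 1 of the 4, was kept in the list after its values were seen. CA9, a cell surface carbonic anhydrase and a classical HIF target, had 0 reads in A375R, 289 in A375+DMSO, 1 in A375P and 95 in A375+VEM. With a floor of 3 reads put in place of the 0 in A375R, CA9 was 93.3-fold lower there than in A375+DMSO. The exact 95% interval on the reads begins below that, at 75.4-fold. A375R and A375P were alike in lacking it. ALDOC, a glycolytic aldolase, had 484 reads in A375R, 1598 in A375+DMSO, 82 in A375P and 1444 in A375+VEM, and was 3.20-fold lower in A375R than in A375+DMSO (95% interval 2.89 to 3.55). Here too the pair treated for 48 h was the high one. BNIP3, a mitochondrial protein of mitophagy, was at 75.9 TPM in A375R, 135 in A375+DMSO, 96.0 in A375P and 107 in A375+VEM. AK4, a mitochondrial adenylate kinase, was at 6.70, 14.8, 11.0 and 6.67 TPM and 2.21-fold lower in A375R than in A375+DMSO (1.95 to 2.50).

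BHLHE40, a transcriptional repressor that hypoxia and the circadian clock induce, went the other way. Its levels were 51.9 TPM in A375R and 21.9 in A375+DMSO, 2.37-fold apart (95% interval 2.14 to 2.63), with 89.8 in A375P and 22.9 in A375+VEM. ADM, adrenomedullin, was at 18.2 and 21.7 TPM, far under the 88.7 TPM of A375P. ALDOA, the main aldolase, was at 656 and 874 TPM, a log2 ratio of −0.41. ANKRD37 (11.9 and 9.95 TPM), ANGPTL4 (9.15 and 7.88 TPM) and BNIP3L (37.6 and 38.2 TPM) stayed within the threshold. Of 6 carbonic anhydrase genes compared 3 were lower in A375R, CA9 among them, where 9.99% of all genes were lower. With a pseudocount of 1 the count is 2. The lower genes beside CA9 were CA14, with 8 and 27 reads, and CA11, with 117 and 190.

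BHLHE40 and 3 lower hypoxia genes, those with 1 start each, moved in opposite directions. All held ACGTG, a form of the core letters of the HIF motif, and their promoters are shown. Each is the 250 bases before the transcription start from RefSeq on GRCh38.p14, 5′ to 3′ on the gene's strand, and capitals mark ACGTG on either strand.
CA9 (chr9:35673678-35673927, plus strand): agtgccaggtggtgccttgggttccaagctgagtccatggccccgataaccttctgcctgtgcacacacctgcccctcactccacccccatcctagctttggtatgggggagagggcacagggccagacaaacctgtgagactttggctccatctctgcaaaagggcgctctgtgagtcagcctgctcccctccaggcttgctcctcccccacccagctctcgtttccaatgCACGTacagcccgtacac
ALDOC (chr17:28576896-28577145, minus strand): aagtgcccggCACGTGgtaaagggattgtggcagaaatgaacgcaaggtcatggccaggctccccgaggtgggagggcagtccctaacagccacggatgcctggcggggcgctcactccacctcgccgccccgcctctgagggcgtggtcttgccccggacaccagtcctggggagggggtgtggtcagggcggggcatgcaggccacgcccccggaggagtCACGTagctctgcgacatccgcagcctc
BNIP3 (chr10:131981924-131982173, minus strand): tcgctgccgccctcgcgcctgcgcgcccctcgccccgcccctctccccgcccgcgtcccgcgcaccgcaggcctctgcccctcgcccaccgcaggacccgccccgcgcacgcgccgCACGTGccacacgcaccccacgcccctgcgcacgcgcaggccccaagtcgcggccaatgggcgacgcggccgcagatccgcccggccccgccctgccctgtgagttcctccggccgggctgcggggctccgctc
BHLHE40 (chr3:4979187-4979436, plus strand): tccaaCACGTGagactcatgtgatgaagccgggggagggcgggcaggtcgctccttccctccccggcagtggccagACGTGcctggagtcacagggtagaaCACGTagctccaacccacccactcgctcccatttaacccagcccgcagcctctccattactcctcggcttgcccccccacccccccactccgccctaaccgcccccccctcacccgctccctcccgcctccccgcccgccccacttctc

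CA9 has 1 match, at position −18 counted back from the base just before the start, while ALDOC has 3, BNIP3 2 and BHLHE40 4. The palindrome CACGTG holds a match on each strand and is also the E-box that circadian and MYC-type factors bind. Of 35116 RefSeq starts, 18.5% hold ACGTG in this window on either strand, as do 21.7% of 27305 genes at any start. Of the 12 hypoxia genes compared, 11 had an entry and 9 of these held ACGTG, the only form searched, at 1 start or more. The higher and the lower genes thus both held it, and so did ANKRD37 and ANGPTL4, which stayed within the threshold. A match describes the letters and not binding.

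Other genes were lower in A375R without belonging to 1 group. ARRDC4, an arrestin-domain protein that responds to glucose, had 84 reads in A375R, 461 in A375+DMSO, 237 in A375P and 1038 in A375+VEM. It was 5.31-fold lower in A375R than in A375+DMSO (95% interval 4.20 to 6.79), and A375R had the lowest level of the 4 libraries. BARX1, a homeobox transcription factor, was at 7.23, 26.7, 7.72 and 9.35 TPM in A375R, A375+DMSO, A375P and A375+VEM. C6orf141 was at 7.16, 19.1, 7.02 and 7.13 TPM. In both genes it was A375+DMSO that stood above the other libraries, which were alike. ART3, a member of the ADP-ribosyltransferase family, had 33, 147, 8 and 135 reads, which sets the pair treated for 48 h above the others as for BST2. ASAP3, an activator of Arf GTP hydrolysis, was at 4.60, 10.1, 0.703 and 9.01 TPM.

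A further group was highest in A375+VEM. AZGP1, a secreted zinc-binding glycoprotein, had 122 reads in A375R, 310 in A375+DMSO, 54 in A375P and 1097 in A375+VEM, and was 2.46-fold lower in A375R than in A375+DMSO (95% interval 1.99 to 3.06). BFSP1, the filament protein filensin of the lens, had 110, 299, 88 and 559 reads. A2M, the protease inhibitor alpha-2-macroglobulin, had 209, 473, 93 and 2969 reads. ATP1B2, a beta subunit of the sodium pump, had 11, 140, 2 and 272 reads and was 12.3-fold lower in A375R than in A375+DMSO (6.68 to 25.3). ATP1B1, another beta subunit, stayed within the threshold at 72.1 and 76.5 TPM. For these genes A375R lay between A375P and A375+DMSO.

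ALDH1A3, which makes retinoic acid and marks aggressive melanoma cells, reached the highest TPM of the genes past the threshold, with 36303 reads in A375R and 19879 in A375+DMSO. Its level was 1300 TPM in A375R, 689 in A375+DMSO, 815 in A375P and 99.1 in A375+VEM, and A375R was 1.89-fold above A375+DMSO (95% interval 1.85 to 1.92). Of 28 aldehyde and alcohol dehydrogenases and aldo-keto reductases, 3 were higher and 6 lower, with a median log2 ratio of −0.24. That is 10.7% and 21.4%, beside 10.5% and 9.99% of all genes. Among the lower were ALDH3B1, at 23.7 and 42.4 TPM, and the mitochondrial ALDH6A1, at 5.54 and 10.4 TPM, which overlaps BBOF1. ALDH2, which clears acetaldehyde, was at 45.9 and 54.4 TPM.

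Enzymes of fatty acid metabolism had 4 higher and 3 lower members of 41, which is 9.76% and 7.32% and no more than the 10.5% and 9.99% of all genes, and none of the 41 passed 2-fold. ACOT7, which splits acyl-CoA, was at 268 TPM in A375R, 142 in A375+DMSO, 102 in A375P and 65.8 in A375+VEM, 1.89-fold apart in the compared libraries (95% interval 1.80 to 1.98). ACSL3 and ACSL1, which activate fatty acids, were at 154 and 89.2 TPM and at 31.0 and 20.3 TPM. ACADS, which oxidises short chains in mitochondria, was lower, at 11.0 and 19.6 TPM, and so was ACSS1, the mitochondrial acetyl-CoA synthetase, at 6.52 and 11.1 TPM. ABCA1, a cholesterol exporter, led the 29 ABC transporters, of which 2 were higher and 1 lower, or 6.90% and 3.45%, fewer than among all genes. It had 921 reads in A375R and 362 in A375+DMSO, beside 871 in A375P and 608 in A375+VEM.

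Genes of cell division stayed close to equal. Of 16 genes on a list of mitotic kinase and spindle genes 1 was higher and none lower, against 10.5% and 9.99% of all genes. The higher gene was BRCA2, better known as a DNA repair gene, at a log2 ratio of 0.59. BRCA2 lies on the threshold and was not called under scaling to a median ratio of 1 or with a pseudocount of 1. Of 17 genes on a list of DNA repair genes 2 were higher, or 11.8%, and none lower. With a pseudocount of 1 none of the 17 was higher. AURKA was at 80.5 TPM in A375R and 91.3 in A375+DMSO, AURKB at 109 and 117, BUB1 at 37.3 and 38.7 and ASPM, a spindle pole protein, at 32.2 and 34.4. The same genes were at 6.52, 3.07, 1.25 and 0.509 TPM under acute vemurafenib. Chromatin regulators had 2 higher and no lower gene of 40, the anaphase-promoting complex 1 and 0 of 10, and the ATP synthase none of 18. ACTB and ACTG1, the main actins, were at 2542 and 2296 and at 2980 and 2646 TPM. Of 5 angiomotin, AJUBA and ANKRD1 genes, whose products bind or answer to YAP of the Hippo pathway, none was higher and AMOT was lower, at 8.22 and 16.6 TPM, while ANKRD1, a YAP target, was at 31.4 and 36.4.

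**Figure D5:**
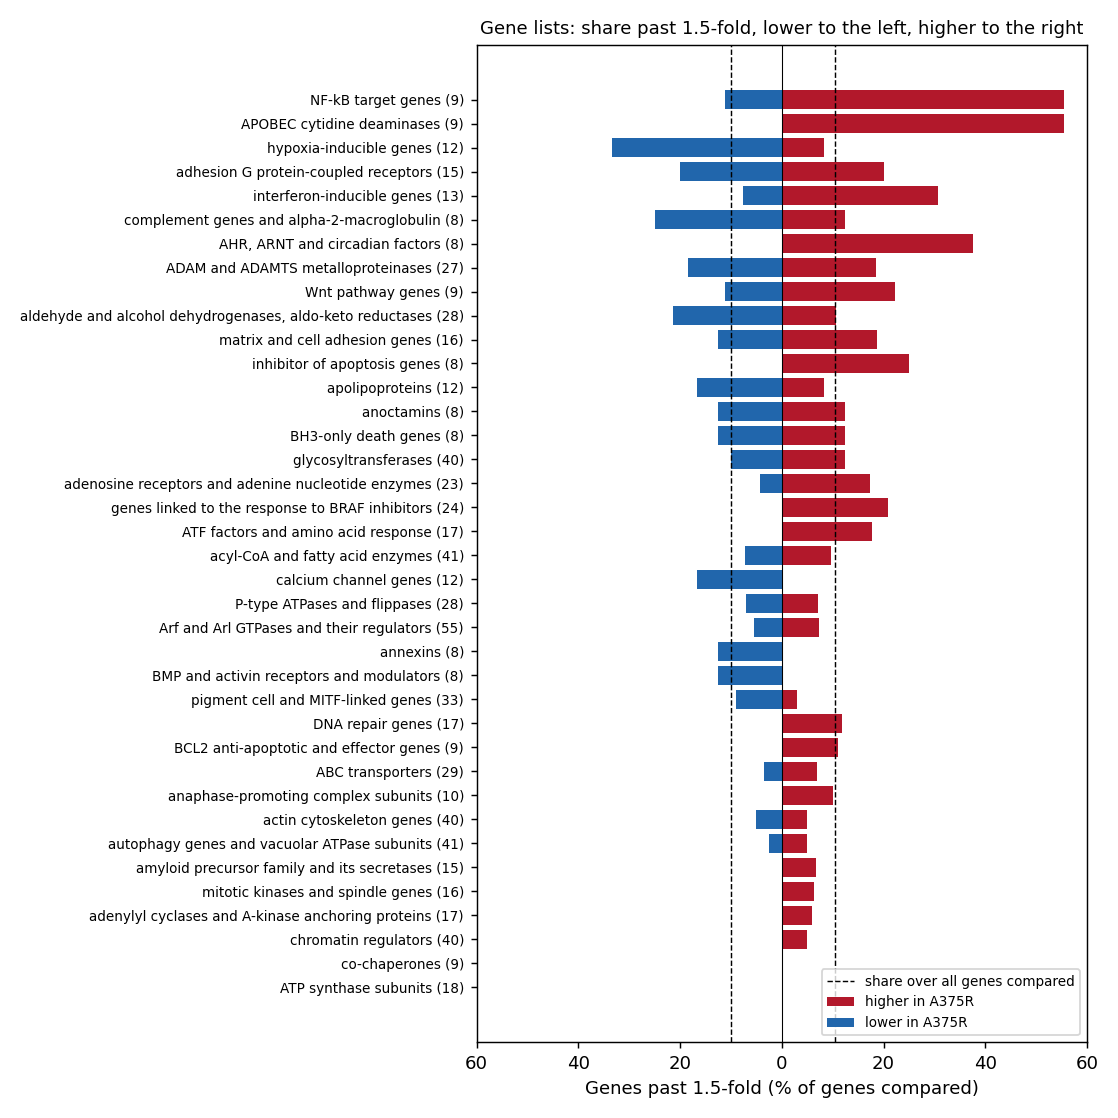
Share of each gene list past 1.5-fold, in percent of its compared genes (number in brackets), lower in A375R to the left and higher to the right, for lists with at least 8 compared genes, with dashed lines at the 9.99% and 10.5% of all genes. ATP synthase subunits and co-chaperones have no bar, APOBEC genes have only a bar to the right, and hypoxia genes reach furthest left with 4 of 12; the NF-kB list was written around genes already known to differ.

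Of the 60 lncRNAs compared, 10% were higher and 28.3% lower. Genes of any type between 1 and 5 TPM had 13.3% higher and 26.0% lower, and of 31 lncRNAs that reached 5 TPM 3 were higher and 5 lower. C15orf54, at chr15:39542870-39547046 in hg19, was the largest rise among them, with 388 reads in A375R, 46 in A375+DMSO, 97 in A375P and 80 in A375+VEM. A375R was 8.71-fold above A375+DMSO (95% interval 6.41 to 12.1) and apart from the other libraries. ANO1-AS2 lies 2954 bp from ANO1 on the other strand and was higher with it, at 97, 39, 38 and 42 reads. ATP6V1B1-AS1 had 78, 46, 165 and 63 reads, with A375P highest. ADAMTSL4-AS1 had 32 reads in A375R and 15 in A375+DMSO, and it overlaps ADAMTSL4, which was lower at a log2 ratio of −0.63. APOC4-APOC2, a read-through transcript with 24 and 16 reads, had an interval that includes 1 (0.790 to 3.12). ABHD11-AS1 was the sixth, with 16 and 6 reads.

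BANCR, named for its activation by mutant BRAF in melanoma cells, had 5 reads in A375R, 56 in A375+DMSO, 0 in A375P and 187 in A375+VEM. It was 10.8-fold lower in A375R than in A375+DMSO (95% interval 4.38 to 34.7), and absent or nearly so from both libraries of cells outside the 48 h treatment. ARHGAP5-AS1 had 86, 254, 52 and 290 reads, with the same pair of libraries high, and was 2.86-fold lower in A375R (2.23 to 3.70). BCYRN1, a short RNA that arose from an Alu repeat, had 4 and 28 reads, and reads of other repeats cannot be told from it with certainty. ARHGAP31-AS1 and ALOX12-AS1 each had 7 and 20 reads. BOK-AS1 had 0 reads in A375R and 15 in A375+DMSO. Whether the counting used strand is not given in the sources used here, so antisense RNAs and the genes they overlap may share reads.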

How the data were processed

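RNA-seq of 4 libraries, 1 per condition, was used as deposited by the authors in 1 table of whole-number read counts and TPM per gene. The deposited TPM followed from the counts and gene lengths by a single factor in each library. The submitters' processing notes name HISAT2, HISAT, TopHat2, Bowtie2 and hg19; the counting program and strandedness are not given in the sources used here. A row without values was left out. With 1 library per side, genes with TPM of at least 1 in either were compared by the ratio of (TPM + 0.1), with a threshold of 1.5-fold. Intervals are exact Clopper-Pearson intervals at 95% on reads, scaled by the library constants. They compare libraries, not conditions. The 3-read floor holds per library.

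Named genes were the 12 largest rises and 12 largest falls among coding genes with at least 10 TPM and 20 reads, 5 lncRNAs in each direction with at least 20 reads, and members of 52 gene lists, those past the threshold first. BNIP3, typed "other" in the table, was kept in its lists after its values were seen. ABHD11-AS1, BISPR and BOK-AS1 were named after their values were seen. The genes and lists were chosen with earlier results of these data known. The steps were tested on simulated data. Alternatives were other pseudocounts, filters, scalings (TMM from edgeR 4.0.16 in R 4.3.3; median ratio), a 2-fold threshold and intervals that exclude 1. Python 3.11.15, pandas 2.3.3, scipy 1.17.1, numpy 2.4.6 and matplotlib 3.10.9 were used.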

Additional observations from a re-analysis of the deposited data

How the results depend on the processing

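Pseudocounts of 1 and 0.01, scaling to a median ratio of 1, TMM factors from edgeR and intervals required to exclude 1 kept each of the 4 counts over all genes and lncRNAs within 1.5 times its reported value, and no named gene changed direction under the pseudocounts and scalings. Without a filter on low values, over 2864 genes, 388 were higher and 430 lower, and 25 lncRNAs were higher and 39 lower. With a TPM of at least 5, over 1340 genes, 131 were higher and 76 lower, and 3 lncRNAs were higher and 5 lower, so the near-even split of higher and lower genes holds with the low genes included. At 2-fold, 72 genes were higher and 75 lower, and 9 lncRNAs were lower. A pseudocount of 1 moved the log2 ratios of 5 named genes beyond their counting intervals: ATP6V0A4 to 3.01, ADGRF1 to 2.74, CA9 to −4.60, ARRDC4 to −2.05 and C15orf54 to 2.59, which is the shrinkage that a larger pseudocount gives low levels. The scalings moved the log2 ratios by 0.02 at most. No paired analysis was possible because each condition has 1 library. Differences of genes with few reads, such as ARTN and APOC4-APOC2, are within counting error, and how far any ratio would repeat in another culture was not measured.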

Other observations

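Among 40 glycosyltransferases 5 were higher in A375R and 4 lower, or 12.5% and 10%, close to the 10.5% and 9.99% of all genes, and with a pseudocount of 1 only 2 were higher. B3GNT5, which starts the lacto-series of glycolipids, had 435 reads in A375R, 200 in A375+DMSO, 270 in A375P and 63 in A375+VEM. A4GALT, which makes the globo-series lipid Gb3, had 364, 221, 33 and 15 reads, so that both A375R and A375+DMSO lay well above A375P. B4GAT1, an enzyme of dystroglycan glycosylation, was lower, at 29.5 and 55.2 TPM. Of 28 P-type ATPases and flippases 2 were higher and 2 lower, 7.14% each and fewer than among all genes. The higher ones were the calcium pump genes ATP2B4, at 99.2 and 56.8 TPM, and ATP2B1, at 29.3 and 19.5 TPM, and 1 was higher under scaling to a median ratio of 1 or with a pseudocount of 1.

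Transcription factors of the BACH, BCL6, BCL11 and BNC families had 3 higher and no lower member of 6, where 10.5% of all genes were higher. The count is 2 under scaling to a median ratio of 1 or with a pseudocount of 1, and 1 at 2-fold. BACH1, a heme-regulated repressor, was at 36.2 TPM in A375R, 23.4 in A375+DMSO, 29.2 in A375P and 16.6 in A375+VEM. BNC1, basonuclin, had 277, 135, 362 and 177 reads in the same order. Among ATF factors and genes of the amino acid response 3 of 17 were higher, or 17.6%, and none lower, and none passed 2-fold. ATF3, a stress-induced factor, was at 68.2 and 42.5 TPM, with 63.0 in A375P, while ATF4, the main factor of that response, was at 603 and 628 TPM. AHNAK2, a large scaffold protein, was at 17.8 TPM in A375R and 8.04 in A375+DMSO, and at 39.3 in A375P.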
